A study of Mus musculus with 6 samples.

Results

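Potassium channel subunit genes were examined in the neocortex of newborn mice with and without the transcription factor Tcf4. Members were all genes in the table of expression values whose symbol is Kcn followed by lower-case letters and a final number, 72 of 15703 genes. The choice used names only and no measured value, although earlier results of these data were known. They comprised 28 voltage-gated pore subunits, 7 silent modifiers, 12 inward rectifiers, 9 two-pore subunits, 7 calcium- or sodium-activated subunits and 9 auxiliary subunits. A mouse gene name table holds 92 such symbols, and the other 20 were not analysed here. Whether low genes were removed before deposit is not given in the sources used here, so counts below describe listed members only.

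The groups were 3 wild-type (WT) mice and 3 conditional knockouts (cKO) of genotype Tcf4 f/f; Emx1Cre/+, all C57BL/6 at postnatal day 0. In the cKO, Cre recombinase from the Emx1 locus removes floxed Tcf4 sequence in the cortical excitatory neuron and glial lineage, so interneurons, microglia and vessels keep the gene. The labels do not say whether WT animals carried floxed alleles or Cre, and titles give each library its own animal code. Libraries are called WT 1 to 3 and cKO 1 to 3 after the titles. Levels are FPKM (fragments scaled to exon length and to a size for each library), given as mean ± SD, n = 3 per group. Expression differences are on the log2(FPKM + 1) scale with SE, and "rose", "fell" and "called" mean an adjusted p under 0.05 from limma with Benjamini-Hochberg adjustment over all 15703 genes.

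Potassium channels let potassium ions leave the cell, which sets the resting potential, repolarises the action potential and limits repetitive firing. Pore subunits assemble in fours, or in twos for the two-pore class, and members of a subfamily can mix, while silent modifiers form no working channel alone and alter Kv2 channels. In immature cortical neurons the resting potential becomes more negative and spikes become briefer as these channels appear.

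Tcf4 was lower in every cKO library, at 71.2, 75.6 and 75.3 FPKM in WT mice, and at 56.5, 60.6 and 55.3 in cKO mice (limma adjusted p = 0.00411). This value covers all exons and all cells of the tissue. All 7 markers of neocortical identity were measured, and their summed level was 548 to 600 FPKM in WT and 601 to 638 FPKM in cKO, with Emx1 called lower. Without Neurod6, the most abundant and not called, the other 6 summed to 261 to 298 FPKM in WT and 264 to 275 FPKM in cKO. By Xist and Y-linked genes, each group held 1 male (WT 1, cKO 3) and 2 female libraries. Listed genes held about 25.34 to 28.75 M reads per library.

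Among the 72 members, 9 rose (12.5%, against 7.22% of all genes) and 18 fell (25%, against 8.59% of all genes), and 45 did not pass. Together 37.5% of members were called, against 15.8% of all genes. The groups did not overlap in 43 members (59.7%), against 37.3% of all genes. The median log2 difference of the members was -0.0011 and that of all genes 0.0017, while the median absolute difference was 0.24 in members and 0.13 in all genes. The summed level of the 72 members was 304 ± 18.2 FPKM in WT, against 301 ± 6.01 FPKM in cKO. Called members lay on both sides, and the Kcnh, Kcnk and Kcnn subfamilies each held members called higher and members called lower, as the plot of differences by role shows. The counts depended on single libraries, with 8 members called lower without WT 1 and 10 without cKO 1, cKO 2 or cKO 3, and 4 called higher without cKO 1. When each library was left out in turn, 12 of the 27 members stayed called every time (4 higher, 8 lower). The matching share of all called genes is not given here, so this count only describes the members. No called member changed direction, but none could, because the groups did not overlap in any of the 27.

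**Figure D1:**
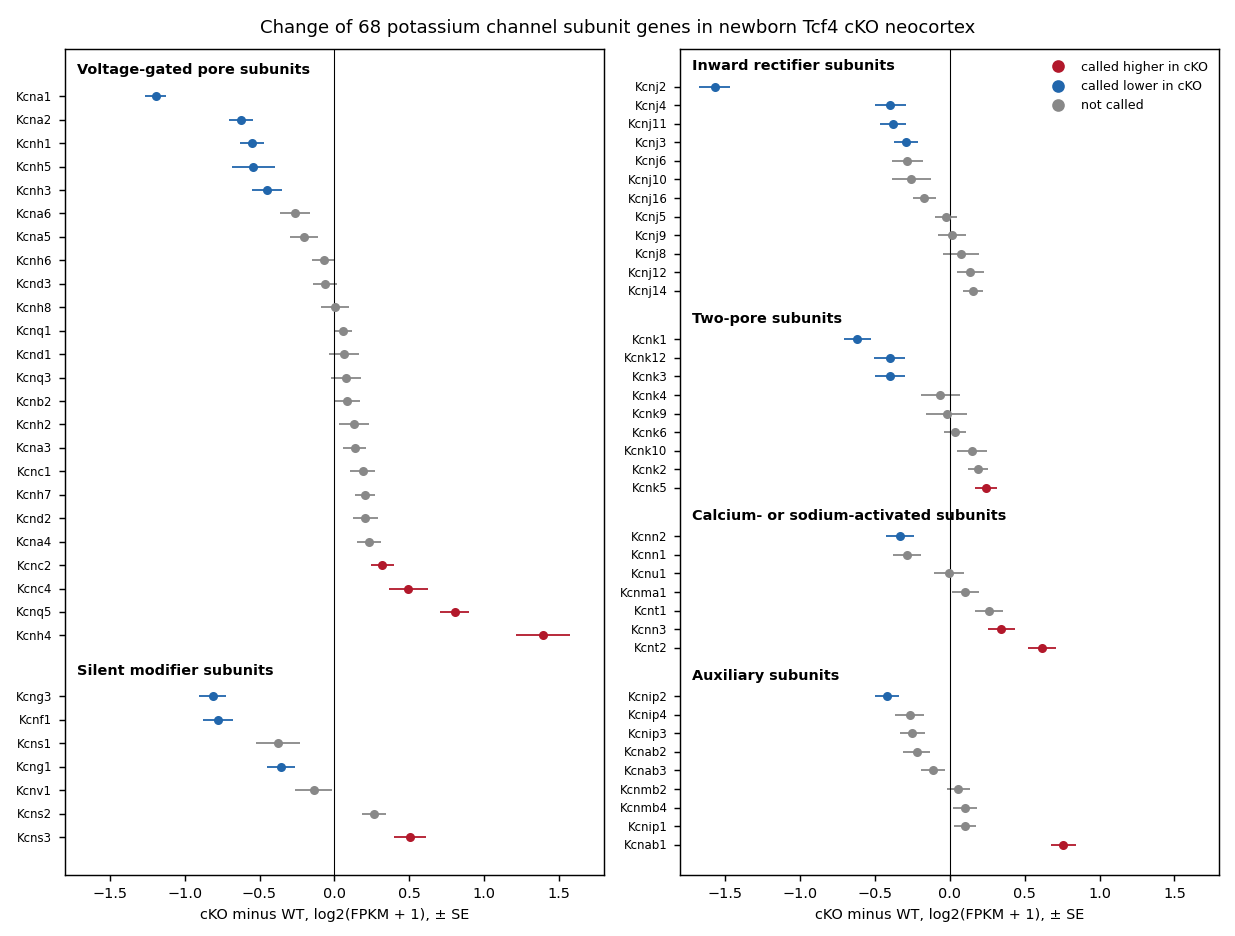
Difference between cKO and WT on the log2(FPKM + 1) scale (x axis, point with SE bar, n = 3 per group) for 68 members, grouped by role. Red points are the 9 members called higher, blue points 17 called lower and grey points 42 not called, and the inward rectifiers hold blue points and no red ones.

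The members with the highest level were largely those that did not pass. Kcnd2 (the A-type channel Kv4.2) was at 12.96 ± 1.62 and 15.04 ± 0.307 FPKM in WT and cKO. The mechanosensitive two-pore subunits Kcnk2 and Kcnk10 were at 11.2 ± 0.722 and 11.0 ± 1.68 FPKM in WT, against 12.8 ± 0.2996 and 12.2 ± 0.736 FPKM in cKO. The M-current subunit Kcnq3, the large-conductance calcium-activated pore Kcnma1, the Kv3 gene Kcnc1, the ERG-type Kcnh7 and the Kv4 partner Kcnip3 were also among the 10 highest and did not pass (limma adjusted p from 0.0683 for Kcnh7 to 0.63 for Kcnq3). Of the 10 highest members, only Kcnq5 was called. Members with a mean of at least 5 FPKM held 1 that rose and 6 that fell among 22, those from 1 to 5 FPKM 7 and 9 among 36, and those under 1 FPKM 1 and 3 among 14. These were 31.8%, 44.4% and 28.6% of the members at each level, against 15.7%, 17.8% and 12.5% of all genes at the same levels.

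Kv1 channels are low-threshold delayed rectifiers of axons and terminals that delay spiking. Kcna1 (Kv1.1, ENSMUSG00000047976, chromosome 6, 126640397 to 126646384, minus strand, mm10) was at 1.88, 1.96 and 1.74 FPKM in WT mice, and at 0.265, 0.224 and 0.262 in cKO mice. Every cKO library was far below every WT library, a 7.43-fold lower mean (log2 difference -1.19, SE 0.0720, limma adjusted p = 6.92e-06). These levels rest on about 195 to 234 reads per WT library and 26 to 30 per cKO library. Its usual partner Kcna2 (Kv1.2, ENSMUSG00000040724, chromosome 3, 107101146 to 107115005, plus strand) was at 3.92, 3.97 and 3.72 FPKM in WT, against 2.20, 2.04 and 2.26 FPKM in cKO. The groups were well apart here too, with a 1.79-fold lower mean (log2 difference -0.62, SE 0.0796, limma adjusted p = 0.000859).

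The remaining 4 Kv1 genes did not pass. Kcna3, the highest of them, was at 6.95 ± 0.563 FPKM in WT mice, and at 7.73 ± 0.410 in cKO mice. Kcna4, the inactivating Kv1 subunit, was at 1.68 ± 0.0613 and 2.15 ± 0.109 FPKM, with all cKO libraries above all WT libraries (limma adjusted p = 0.079). Kcna6 was at 6.498 ± 0.699 and 5.25 ± 0.633 FPKM, although 39.6% of its exon length is covered by the antisense gene Gm26673, whose reads cannot be told apart without strand. Kcna5 was low, at 0.446 ± 0.127 and 0.257 ± 0.134 FPKM. Kcna1 supplied 8.74% ± 0.401 of the summed Kv1 FPKM in WT and 1.41% ± 0.0780 in cKO, and Kcna3 32.6% ± 1.16 and 43.5% ± 2.26.

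Both called Kv1 genes lie near Kv1 genes that did not pass. Kcna1 has Kcna6 at a distance of 61.9 kb and Kcna5 at 105 kb on chromosome 6, and neither neighbour passed. Kcna2 lies 63.1 kb from Kcna3 on chromosome 3, and Kcna3 did not pass. Among inward rectifiers, Kcnj2 lies 38.2 kb from Kcnj16 on chromosome 11. The difference between neighbours in a cluster was not tested.

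The beta subunits of Kv1 channels are cytosolic proteins that speed inactivation or aid surface delivery. Kcnab1 (ENSMUSG00000027827, chromosome 3, 65109384 to 65378223, plus strand) rose from 2.52, 2.65 and 2.40 FPKM in WT to 4.85, 4.69 and 5.35 FPKM in cKO. All cKO libraries were close to double the WT level, with a ratio of 1.97 (log2 difference 0.76, SE 0.0815, limma adjusted p = 0.000313). Kcnab2 was at 4.73 ± 0.475 and 3.91 ± 0.344 FPKM and Kcnab3 at 2.45 ± 0.154 and 2.19 ± 0.0442 FPKM, and neither passed. Kcnab1 supplied 26.1% ± 2.21 of the summed beta subunit FPKM in WT and 44.8% ± 1.27 in cKO, ahead of Kcnab2 in the latter. Kcnab1 is also a known marker of subplate neurons, an early-born cortical cell population. Of 6 other subplate markers, 3 were called higher and 1 lower, with summed levels of 39.8 to 51.6 FPKM in WT and 35.2 to 44.5 FPKM in cKO. The lower sum came from Nr4a2, which fell from 33.4 to 15.2 FPKM on average, while the other 5 markers summed to 12.7 to 14.0 FPKM in WT against 21.5 to 26.8 FPKM in cKO, and the median log2 difference of the 6 was 0.42. Their part in the Kcnab1 result was not tested, and in whole tissue fewer cells of a type and less RNA per cell cannot be told apart.

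The Kcnh genes encode the EAG, ERG and ELK channels, which share a cyclic-nucleotide-binding-like domain. They moved apart within the subfamily, with 1 of 8 higher and 3 lower. Kcnh4 (an ELK channel, ENSMUSG00000035355, chromosome 11, 100740376 to 100759942, minus strand) was at 2.17, 3.10 and 1.45 FPKM in WT, against 9.18, 6.55 and 6.51 FPKM in cKO. The lowest cKO library was above the highest WT library, although both groups varied, and the mean was 3.31-fold higher (log2 difference 1.39, SE 0.181, limma adjusted p = 0.00102). The closely related ELK channel Kcnh3 went the other way, from 7.97, 6.68 and 6.75 FPKM to 5.68, 4.46 and 4.73 FPKM, a 1.44-fold lower mean (limma adjusted p = 0.013). In WT the Kcnh3 level was above that of Kcnh4 in every library, and in cKO below it in every library.

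Both EAG genes fell. Kcnh1 (ENSMUSG00000058248, chromosome 1, 192190774 to 192510159, plus strand) was at 0.670, 1.04 and 0.821 FPKM in WT mice, and at 0.225, 0.269 and 0.271 in cKO mice. The groups were clearly apart at a low level, with a 3.31-fold lower mean (log2 difference -0.55, SE 0.0807, limma adjusted p = 0.00176) that rests on 128 to 179 reads per WT library and 39 to 48 per cKO library. Kcnh5 was at 1.14, 1.91 and 0.967 FPKM in WT, against 0.385, 0.790 and 0.606 FPKM in cKO (a 2.26-fold lower mean, limma adjusted p = 0.032). The ERG genes Kcnh2 (3.15 ± 0.382 against 3.55 ± 0.420 FPKM) and Kcnh6 (0.426 ± 0.0790 against 0.358 ± 0.113 FPKM) did not pass, nor did Kcnh7 or the ELK gene Kcnh8, which was at 0.826 FPKM in both groups. The call of Kcnh3 was lost without WT 1 (adjusted p = 0.0590) or cKO 2, and that of Kcnh5 without WT 1, cKO 1 (0.126) or cKO 3.

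**Figure D2:**
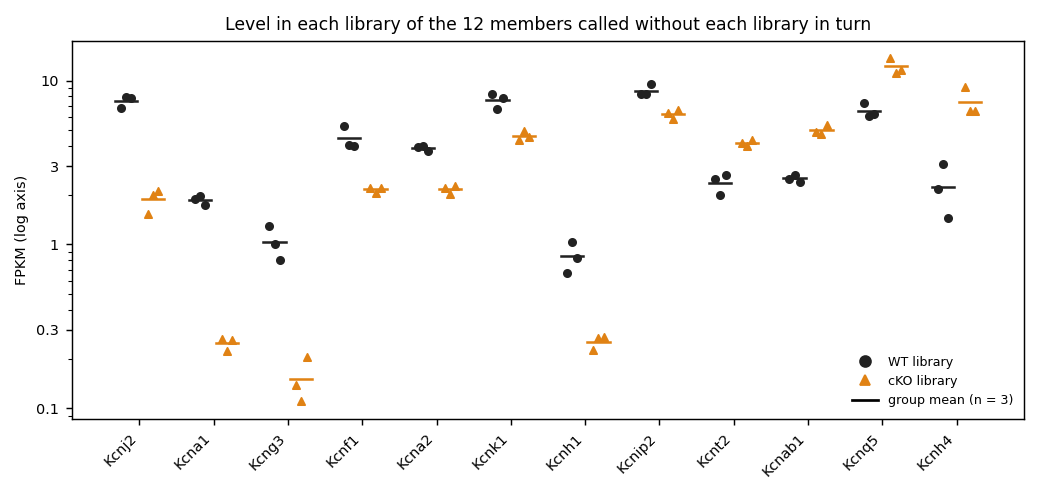
FPKM on a log axis in each WT library (circles) and cKO library (triangles), with group means as bars, for the 12 members whose call held without each library in turn. No circle and triangle ranges overlap for any of the 12, and Kcna1, Kcng3 and Kcnh1 lie under 0.3 FPKM in every cKO library.

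Kv7 genes encode subunits of the slowly activating M-current, which restrains repetitive firing, and of related channels. Kcnq5 (ENSMUSG00000028033, chromosome 1, 21398403 to 21961942, minus strand) was at 7.32, 6.06 and 6.28 FPKM in WT mice, and at 13.7, 11.2 and 11.6 in cKO mice. Each cKO library exceeded each WT library by a wide margin, with a ratio of means of 1.86 (log2 difference 0.80, SE 0.0940, limma adjusted p = 0.000501). Kcnq1, best known from heart and epithelia, was near the bottom of the members at 0.190 ± 0.0295 and 0.241 ± 0.0540 FPKM. Kcnq5 supplied 14.2% ± 1.38 of the summed Kv7 FPKM in WT and 23.0% ± 1.36 in cKO.

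**Figure D3:**
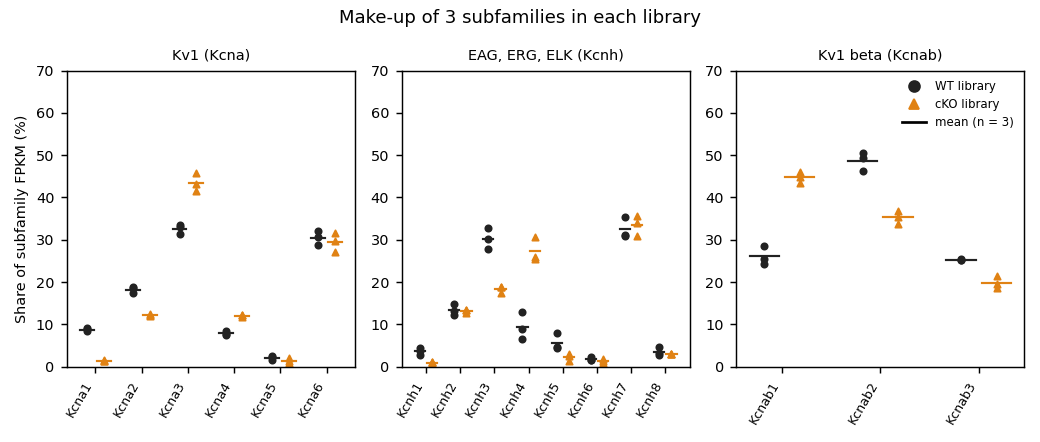
Share of the summed FPKM of 3 subfamilies (percent, y axis) supplied by each gene in each WT library (circles) and cKO library (triangles), with means as bars. The shares of Kcna1 and Kcna2 are lower in every cKO library, the mean share of Kcnh4 is 9.42% in WT and 27.4% in cKO, and Kcnab1 passes Kcnab2 in the cKO libraries.

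Kv3 channels open at strongly positive potentials and close fast, which allows rapid firing. Kcnc2 rose from 3.98, 4.00 and 3.84 FPKM to 5.49, 4.89 and 5.13 FPKM (limma adjusted p = 0.019), with no overlap. Kcnc4 rose from 1.81, 1.66 and 2.23 FPKM to 2.98, 2.47 and 3.89 FPKM (1.64-fold, limma adjusted p = 0.0304), with the lowest cKO library just above the highest WT library. Kcnc1 was at 8.30 ± 0.796 and 9.59 ± 0.623 FPKM and did not pass. The call of Kcnc2 was lost without WT 1, cKO 1 (adjusted p = 0.0761) or cKO 3, and that of Kcnc4 without WT 1 (0.0943), WT 2, cKO 1 or cKO 3. Kv3 genes are prominent in fast-spiking interneurons of the mature cortex. Of 11 GABAergic interneuron markers, 4 were called lower and none higher, with summed levels of 202 to 229 FPKM in WT and 203 to 218 FPKM in cKO. Npy, which was not called, averaged 89.6 FPKM in WT and 106 FPKM in cKO, while the other 10 markers summed to 120 to 129 FPKM in WT against 96.5 to 108 FPKM in cKO, and the median log2 difference of the 11 was -0.19. Their part in the Kv3 values was not tested.

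The A-type channels of the Kv4 class held no called pore subunit. Kcnb2, a Kv2 delayed rectifier, was at 3.08 ± 0.310 and 3.31 ± 0.0492 FPKM in WT and cKO. Kcnd3 was at 8.12 ± 0.758 and 7.71 ± 0.434 FPKM and Kcnd1 at 2.03 ± 0.344 and 2.16 ± 0.0967 FPKM. The Kv4 partners of the Kcnip group are calcium-binding proteins that raise surface expression and shape inactivation. Of them, Kcnip2 (ENSMUSG00000025221, chromosome 19, 45791839 to 45816061, minus strand) fell from 8.23, 8.26 and 9.57 FPKM to 6.30, 5.80 and 6.62 FPKM. The highest cKO library stayed below the lowest WT library (log2 difference -0.42, SE 0.0818, limma adjusted p = 0.00783). Kcnip3 (12.2 ± 1.072 and 10.1 ± 0.850 FPKM) and Kcnip4 (2.68 ± 0.196 and 2.07 ± 0.302 FPKM) also had all cKO libraries below all WT libraries without passing. Kcnip1 had all cKO libraries above all WT libraries, at 3.99 ± 0.116 and 4.36 ± 0.0770 FPKM, and did not pass.

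The silent modifiers, which join Kv2 subunits and shift their gating, held 4 called genes among 7. Kcng3 (Kv6.3, ENSMUSG00000045053, chromosome 17, 83585957 to 83631895, minus strand) was at 1.29, 1.002 and 0.801 FPKM in WT, against 0.139, 0.110 and 0.206 FPKM in cKO. All cKO libraries were several-fold below the lowest WT library, with a 6.80-fold lower mean (log2 difference -0.81, SE 0.0904, limma adjusted p = 0.000361). The levels rest on 63 to 113 reads per WT library and 9 to 16 per cKO library, and the log2 difference of so low a gene understates the ratio. Kcnf1 (Kv5.1, ENSMUSG00000051726, chromosome 12, 17172100 to 17176888, minus strand) fell from 5.28, 4.06 and 4.000 FPKM to 2.22, 2.05 and 2.22 FPKM. This was a 2.06-fold lower mean with groups well apart (log2 difference -0.78, SE 0.102, limma adjusted p = 0.001).

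Of the other 5 silent modifiers, 2 were called. Kcng1 fell from 4.35 ± 0.489 FPKM in WT to 3.18 ± 0.316 in cKO (limma adjusted p = 0.0329, up to 0.125 without cKO 2, and lost also without WT 1 or cKO 1). Kcns3 went the other way, from 1.78, 1.41 and 1.31 FPKM to 2.94, 2.502 and 2.21 FPKM (1.70-fold higher, limma adjusted p = 0.0117, and 0.0502 without cKO 1). Kcns2 was at 1.14 ± 0.0934 and 1.56 ± 0.101 FPKM with no overlap and just missed the threshold (limma adjusted p = 0.0545). Kcns1 was at 2.51, 1.27 and 2.30 FPKM in WT mice, and at 1.36, 1.199 and 1.31 in cKO mice, so WT 2 lay within the cKO range. Kcnv1 was at 5.88 ± 1.16 and 5.23 ± 0.694 FPKM.

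Inward rectifiers pass potassium best near the resting potential and hold the membrane negative. Of 12 members, 4 fell and none rose, and their summed level was 33.9, 33.9 and 31.6 FPKM in WT, against 21.7, 23.5 and 23.5 FPKM in cKO. Kcnj2 (Kir2.1, ENSMUSG00000041695, chromosome 11, 111066164 to 111076821, plus strand) made up most of this difference. It was at 6.75, 7.97 and 7.88 FPKM in WT mice, and at 1.53, 1.995 and 2.12 in cKO mice. The groups were far apart, with a 4.01-fold lower mean (log2 difference -1.57, SE 0.102, limma adjusted p = 1.15e-05). Kcnj2 supplied 22.8% ± 2.58 of the summed Kcnj FPKM in WT and 8.18% ± 1.02 in cKO.

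The other strong rectifier that fell was Kcnj4 (Kir2.3), at 2.29, 2.14 and 2.28 FPKM in WT, against 1.79, 1.44 and 1.19 FPKM in cKO (a 1.52-fold lower mean, limma adjusted p = 0.0269). Kcnj11, the pore of ATP-sensitive channels, fell from 6.85, 5.45 and 5.79 FPKM to 4.31, 4.59 and 4.27 FPKM (a 1.37-fold lower mean, limma adjusted p = 0.0183). Kcnj3, the GIRK1 subunit opened by G proteins, fell from 6.20 ± 0.564 FPKM in WT to 4.87 ± 0.0787 in cKO (limma adjusted p = 0.0356), with 31.1% of its exon length covered by the antisense gene Gm26794. These 3 calls were lost without WT 1 (adjusted p = 0.0850, 0.0742 and 0.119) and without cKO 3. Kcnj4 lost its call also without WT 3 or cKO 2, Kcnj11 without cKO 1, and Kcnj3 without WT 2, cKO 1 or cKO 2 and with sex as a covariate (0.0554). The GIRK2 gene Kcnj6 was at 0.766 ± 0.250 and 0.445 ± 0.117 FPKM, with 1 cKO library inside the WT range, the GIRK4 gene Kcnj5 at 0.408 ± 0.0800 and 0.383 ± 0.0949 FPKM, and the GIRK3 gene Kcnj9 at 1.31 ± 0.121 and 1.33 ± 0.212 FPKM. The Kir2 relatives Kcnj12 (1.18 ± 0.0859 and 1.403 ± 0.205 FPKM) and Kcnj14 (0.250 ± 0.0589 and 0.392 ± 0.0888 FPKM) had higher means in cKO and did not pass.

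Several inward rectifiers are known from cells other than neurons. Kcnj10 (Kir4.1), the main potassium channel of astrocytes, was at 5.55, 4.29 and 4.11 FPKM in WT mice, and at 2.99, 4.41 and 3.81 in cKO mice, so the groups overlapped. Its partner Kcnj16 was at 0.422 ± 0.0827 and 0.264 ± 0.101 FPKM, without overlap and without passing. Of 8 measured astrocyte markers, 7 were called lower, with summed levels of 126 to 160 FPKM in WT and 81.4 to 99.9 FPKM in cKO. Kcnj8, the ATP-sensitive pore of pericytes, was at 2.17 ± 0.555 and 2.32 ± 0.125 FPKM, and none of 5 measured mural markers was called (summed 30.8 to 35.8 and 28.3 to 30.4 FPKM). Kcnj2 is also known from microglia and endothelium. Of 6 measured microglia markers 2 were called lower (summed 15.4 to 17.8 FPKM in WT and 9.98 to 13.2 FPKM in cKO), and of 5 endothelial markers none (28.6 to 33.5 and 27.1 to 30.9 FPKM). Kcnj10 is also known from the oligodendrocyte lineage, of whose 6 markers 2 were called lower (Pdgfra and Olig1), with summed levels of 59.0 to 67.8 FPKM in WT and 44.9 to 54.6 FPKM in cKO. Without Olig1 the other 5 summed to 26.5 to 34.0 FPKM and 24.9 to 30.1 FPKM, and these ranges overlapped. The part of these cells in the Kcnj values was not tested.

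Promoter sequence is shown for Kcnj2 and Kcng3, chosen from the 20 of 27 called members with a RefSeq promoter window. They are the 2 called lower with the smallest p whose gene start is the most upstream one in both RefSeq and GENCODE. Kcna1 had no such window and could not be chosen. Tcf4 and related factors bind E-boxes, the word CANNTG, which reads the same on both strands. The 250 bases before each start are given 5′ to 3′ on the gene's strand from RefSeq (GRCm38.p6, the assembly of mm10), with each E-box in capitals. The Kcnj2 window is chr11:111065914-111066163 (plus strand) and the Kcng3 window chr17:83631896-83632145 (minus strand).
Kcnj2: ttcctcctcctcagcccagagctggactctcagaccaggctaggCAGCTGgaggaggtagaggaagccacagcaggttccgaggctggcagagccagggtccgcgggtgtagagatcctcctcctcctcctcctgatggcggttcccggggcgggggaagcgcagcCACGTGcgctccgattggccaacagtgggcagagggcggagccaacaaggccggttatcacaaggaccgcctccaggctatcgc
Kcng3: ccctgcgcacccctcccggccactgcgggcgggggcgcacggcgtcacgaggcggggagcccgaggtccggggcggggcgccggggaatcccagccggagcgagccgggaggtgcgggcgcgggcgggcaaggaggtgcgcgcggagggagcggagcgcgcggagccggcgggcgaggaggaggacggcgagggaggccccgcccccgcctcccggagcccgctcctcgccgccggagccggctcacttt
The Kcnj2 window holds 2 E-boxes, of which 1 is the CAGCTG form, and the Kcng3 window holds none. Of 32851 windows of this length before RefSeq gene starts, 66.2% hold an E-box, 13% CAGCTG and 17.2% CACCTG or its complement CAGGTG. The 50 members in that table have 73 such windows, of which 61.6%, 23.3% and 23.3% hold these words. A match is a run of letters and no evidence of binding.

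Two-pore subunits form the leak channels of the resting membrane. Of 9 members, 3 fell, 1 rose and 5 did not pass. Kcnk1 (TWIK-1, ENSMUSG00000033998, chromosome 8, 125995170 to 126030685, plus strand) fell from 8.32, 6.67 and 7.79 FPKM to 4.33, 4.93 and 4.50 FPKM. The groups did not overlap, and the mean was 1.65-fold lower (log2 difference -0.62, SE 0.0899, limma adjusted p = 0.00171). The acid-sensitive Kcnk3 (TASK-1) fell from 4.30, 3.29 and 4.38 FPKM to 2.76, 2.89 and 2.65 FPKM (a 1.44-fold lower mean, limma adjusted p = 0.0262), and Kcnk12 from 1.52 ± 0.288 to 0.902 ± 0.139 FPKM (a 1.68-fold lower mean, limma adjusted p = 0.0267). Both calls held only without WT 2, with adjusted p of 0.0998 for Kcnk3 without WT 1 and 0.102 for Kcnk12 without cKO 2.

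The two-pore gene that rose was Kcnk5, at 0.160, 0.089 and 0.089 FPKM in WT, against 0.427, 0.342 and 0.192 FPKM in cKO (limma adjusted p = 0.0491). This is one of the lowest members, with 7 to 14 reads per WT library and 15 to 34 per cKO library, and its call held only without cKO 3 (adjusted p of 0.159 without cKO 1). The call was also lost without the variance trend (0.0777) and with sex as a covariate (0.0620). Kcnk9 (TASK-3), the closest relative of Kcnk3, was at 6.92 ± 1.62 and 6.72 ± 0.694 FPKM and the groups overlapped. Kcnk4 and Kcnk6 were at 0.655 ± 0.315 and 0.201 ± 0.0970 FPKM in WT mice, and at 0.567 ± 0.105 and 0.229 ± 0.0737 in cKO mice.

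Among channels opened by calcium or sodium, Kcnt2 and Kcnn3 rose, Kcnn2 fell and 4 did not pass. Kcnt2, a sodium-activated channel of the Slick type (ENSMUSG00000052726, chromosome 1, 140246158 to 140612067, plus strand), was at 2.51, 1.99 and 2.64 FPKM in WT, against 4.14, 3.998 and 4.34 FPKM in cKO. All cKO libraries were above all WT libraries, with a ratio of 1.75 (log2 difference 0.61, SE 0.0949, limma adjusted p = 0.00234). Its relative Kcnt1 (Slack) was at 2.24, 2.31 and 1.95 FPKM and 3.18, 2.60 and 2.63 FPKM, also without overlap, and did not pass (limma adjusted p = 0.0851). The small-conductance genes moved apart. Kcnn2 (SK2) fell from 3.97, 3.32 and 3.73 FPKM to 2.78, 3.001 and 2.37 FPKM (limma adjusted p = 0.042), and Kcnn3 (SK3) rose from 3.20, 2.66 and 2.48 FPKM to 3.81, 3.63 and 3.92 FPKM (limma adjusted p = 0.0318). Both calls were lost without 5 of the 6 libraries, all but WT 2 for Kcnn2 (adjusted p up to 0.144 without WT 1) and all but WT 1 for Kcnn3 (up to 0.0922 without cKO 1). With correction for gene length and GC content Kcnn3 reached an adjusted p of 0.0516, and Kcnn2 reached 0.0544 when replicate number was added as a block and 0.0615 with sex as a covariate. Kcnn1 was at 1.68 ± 0.0754 and 1.205 ± 0.219 FPKM without overlap (limma adjusted p = 0.0655). Kcnma1 (8.79 ± 1.17 against 9.48 ± 0.325 FPKM) did not pass, nor did its auxiliary subunits Kcnmb2 (3.39 ± 0.156 against 3.56 ± 0.0624 FPKM) and Kcnmb4 (1.88 ± 0.0611 against 2.09 ± 0.122 FPKM). Antisense genes (Kcnmb4os1 and Kcnmb4os2) cover 31.5% of the Kcnmb4 exon length. Kcnu1, known from sperm, was at 1.75 FPKM in both groups.

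Exon length moved with direction. The median exon length was 6895 bases in the 9 members that rose and 4283 bases in the 18 that fell, and across all genes 5093 bases in those called higher and 3118 bases in those called lower. With length and GC content corrected in each library, 8 members were called higher and 18 lower.

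Genes of proteins that bind, place or regulate these channels were read from a list of 35, of which 32 were measured. Of these 2 rose, 8 fell and 22 did not pass, so 31.25% were called, against 15.8% of all genes. The list was written by hand with earlier results of these data known, so this share only describes the list. The median log2 difference of the 32 was -0.06. Without WT 1, cKO 1 or cKO 2, 4 of them were called lower. Cntn2, an axonal adhesion molecule that with Cntnap2 gathers Kv1 channels beside nodes of Ranvier, fell 5.96-fold, and was at 17.6, 17.1 and 16.1 FPKM in cKO against 100 to 103 FPKM in WT. The Kv1 genes Kcna1 and Kcna2 fell too, and a link between them and Cntn2 was not tested. Cntnap2 was at 5.76 ± 0.247 and 5.37 ± 0.249 FPKM and did not pass. The scaffold gene Dlg1, which binds Kv1 tails, fell from 7.34 ± 0.310 FPKM in WT to 5.46 ± 0.601 in cKO (limma adjusted p = 0.0157), and Adam23, a receptor for Lgi proteins, from 4.77 ± 0.341 to 3.77 ± 0.112 FPKM (limma adjusted p = 0.0436).

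Dpp6, a transmembrane partner of Kv4 channels, fell from 11.6, 10.4 and 9.81 FPKM to 8.49, 7.36 and 8.38 FPKM (limma adjusted p = 0.0184), as Kcnip2 did, while Dpp10 was at 4.89 ± 0.0351 and 4.71 ± 0.2997 FPKM. Akap5, an anchoring protein that brings kinases to M-current channels, fell from 4.29 ± 0.128 FPKM in WT to 2.90 ± 0.289 in cKO (limma adjusted p = 0.00714). The ubiquitin ligase gene Nedd4l, whose protein lowers surface Kv7 channels, rose from 34.0 ± 2.83 to 43.4 ± 1.13 FPKM (limma adjusted p = 0.0101). Calmodulin is the calcium sensor of SK and Kv7 channels and serves many other proteins. Its gene Calm2 fell from 620 ± 48.6 to 480 ± 43.5 FPKM, and Calm3 did not pass. Kctd16, an auxiliary protein of the GABA-B receptors that open GIRK channels, rose 2.42-fold from 0.854, 1.199 and 1.08 FPKM to 2.38, 2.75 and 2.43 FPKM (limma adjusted p = 0.000574). Lrrc55, from a family that shifts the voltage range of large-conductance channels, fell from 9.46 ± 0.513 FPKM in WT to 6.91 ± 0.432 in cKO (limma adjusted p = 0.00592). The sulfonylurea receptor genes Abcc8 and Abcc9, partners of Kcnj11 and Kcnj8, did not pass, nor did the Kv2 partners Vapa, Vapb and Amigo1. Calls were lost without 5 libraries for Adam23 (adjusted p up to 0.146 without WT 1), which lost its call also with the replicate block (0.0521) and with sex as a covariate (0.0680), and without WT 1 or cKO 2 for Dpp6 (0.0817 without cKO 2). They were also lost without cKO 1 or cKO 2 for Calm2 (0.0599) and without WT 1, cKO 1 or cKO 3 for Dlg1 (0.0544).

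**Figure D4:**
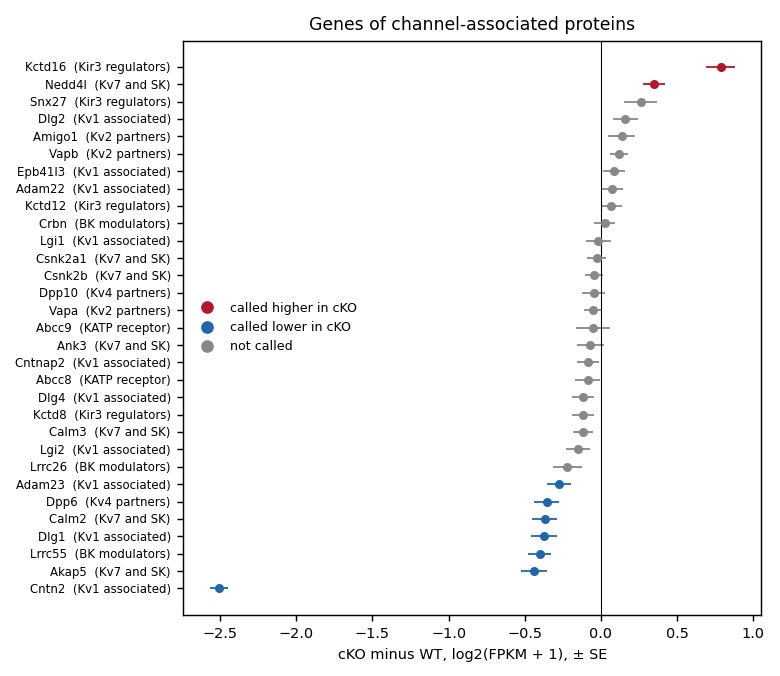
Difference between cKO and WT on the log2(FPKM + 1) scale (x axis, point with SE bar, n = 3 per group) for 31 genes of channel-associated proteins, with the channel class in brackets. Cntn2 stands far to the left at -2.51, 6 other genes are called lower (blue), and Nedd4l and Kctd16 are called higher (red).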

How the data were processed

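RNA from 6 neocortices was sequenced by the submitters with Trizol extraction and a TruSeq RNA kit, and the sources used here give no strand setting. The deposited table holds FPKM values computed by the authors, as its title line states per the file headers. The submitters' processing notes list bcl2fastq 1.8.4, STAR 2.5.4b with mm10, featureCounts 1.6.1, R 3.4.1 and DESeq2 1.22.1, and the annotation release they used is not stated. In all, 15703 genes were listed, and 139 blank lines were left out. Median-of-ratios factors computed on it were 1.00 in every library, so libraries were already on 1 scale.

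Limma 3.58.1 in R 4.3.3 (mean-variance trend, robust moderation, 2-sided) was run on log2(FPKM + 1) of all genes with genotype as the only term. The fit was also run on simulated data with independent noise, which cannot show how far the calls here depend on single libraries. P-values measure the spread between these animals. Exon lengths, GC content and coordinates came from GENCODE M21 (mm10), which matched all 72 members. Approximate reads were FPKM times exon length times a library size, and were used for depth and 1 alternative. That size turned 94.8% to 96.0% of low values into whole numbers (tolerance 0.1), where a wrong size gave 21.0% to 24.9%. It was 23.2 to 26.07 M, in each library below the summed reads, so it was not a plain total of them. The reason was not tested.

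Named members were those called, the 10 highest, the highest of each subfamily, and uncalled ones without overlap at 1.5-fold or more. Others were named after their values were seen. Members and lists were chosen with earlier results of these data known. Alternatives changed the pseudocount, filter, scaling, moderation, length and GC correction, replicate block, test and libraries. Sex terms were added after seeing the data. Python 3.11.15 and pandas 2.3.3 made the summaries. A few genes are counted but not reported by name.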

Additional observations from a re-analysis of the deposited data

How the results depend on the processing

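Pseudocounts of 0.1 and 0.5, median-of-ratios scaling, no trend, the length and GC correction and limma-voom on recovered reads kept the counts of called members within 1.5 times of 9 higher and 18 lower (8 to 12 higher, 18 to 20 lower). With a mean of at least 1 FPKM required, 58 members were tested, 8 were higher and 15 lower. Leaving out each library in turn gave 4 to 8 members higher and 8 to 18 lower, and 2 to 3 partner genes higher and 4 to 7 lower. With sex as a covariate, chosen after seeing the data, 8 members were higher and 15 lower. Without the male library of each group (2 against 2), also chosen after seeing the data, 6 members were higher and 8 lower, and 2 partner genes lower. The causes were not tested, and only the fits that left out libraries had fewer samples. The log2 change of Kcnu1, at -0.01, reversed to 0.017 without WT 3, 0.0473 without cKO 1, 0.0349 without cKO 3 and 0.0249 without the male libraries, with a range from -0.1054 to 0.0473 over the libraries left out. The log2 change of Kcnq3, at 0.08, reversed to -0.0369 without WT 3, with a range from -0.0369 to 0.1754. Neither was called. With the replicate number as a block, 9 members were higher and 17 lower, and 2 partner genes higher and 7 lower (8 and 18, and 2 and 9, with length and GC corrected too). Deviations of same-numbered libraries correlated at -0.046, 0.1 and -0.048, and those of other pairs from -0.196 to 0.206. These values gave no sign of pairing by number, but so few libraries cannot exclude it. Members under 0.3 FPKM rest on few reads, which limits their ratios.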
